A study of Mus musculus with 6 samples.

Results

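The genes described here encode the CD8 co-receptor chains (Cd8a, Cd8b1), the invariant CD3 chains of the T cell receptor (Cd3d, Cd3e, Cd3g, Cd247) and the proteins that act first when the receptor is engaged (Lck, Zap70, Lat, Themis). The genes were taken by symbol, and 10 of 10 were found among the 19323 genes of the deposited table. All 10 were above the filter used for testing, a mean of at least 10 normalized counts over the 6 libraries. RNA had been sequenced from primary CD8+ T cells of the spleen of wild-type C57BL/6 mice that were 6 weeks old at the start and were then fed ND or MCDHFD for 7 weeks, with 3 libraries per diet and both groups of the same genotype, tissue and time on diet. The labels do not spell out the diets. They speak of MASH mouse models, MASH being a liver disease with fat and inflammation. Whether each library of a diet had its own animal is not said in them, and the p-values below therefore cover the spread among these libraries only, which may be technical.

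The T cell receptor has no signalling part of its own. Its antigen-binding chains sit in the membrane with dimers of CD3 delta, epsilon and gamma and of the zeta chain (CD247), whose tails hold the tyrosine motifs that are phosphorylated on engagement. CD8 binds the MHC class I molecule that presents the antigen and brings the kinase LCK, bound to its alpha chain, to the complex. LCK phosphorylates the CD3 and zeta tails, ZAP70 docks there and phosphorylates the membrane adaptor LAT, and LAT gathers the enzymes that start calcium, Ras and NF-kB signalling. THEMIS is a T lineage protein that tunes the strength of this signal, above all in thymocytes.

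All libraries held the markers of the labelled cell type, with Cd8a at 4884 normalized counts or more, and markers of other spleen cells as well. The ranges that follow are summed shares of all normalized counts of a library. The 10 macrophage markers summed to between 0.293% and 0.358% in ND and between 1.34% and 1.62% in MCDHFD, and 10 of 10 rose. The 8 erythroid markers summed to at most 0.0135% in ND and at least 0.0616% in MCDHFD, and 8 of 8 rose. Of the 8 neutrophil markers, 7 rose, and Ly6g was too low to be tested. All 8 B cell markers fell, from at least 0.0395% to at most 0.0113% in sum, and 7 of 8 dendritic cell markers fell, with Cd209a at 0 in the 3 MCDHFD libraries. Of 7 CD4 and regulatory T cell markers 4 fell and 1 rose, and Cd4 itself, at 289.7 ± 32.4 in ND and 331 ± 48.3 in MCDHFD (SD, n = 3), did not pass (limma adjusted p = 0.258). Of the 6 plasma cell markers (5 tested) 3 rose, and of the 5 gamma delta T cell markers (4 tested) 2 fell. Of the 6 NK cell markers 4 were tested, the rest being too low, and 2 fell. The 1 NK cell marker that rose was Tyrobp, which is also listed below among the counterparts in B and myeloid cells. Over all genes, 3772 of 13430 tested were lower in MCDHFD (28.1%) and 4065 higher (30.3%), and the diets did not overlap in 65.4%. The part that the makeup of the sample has in the differences below was not tested.

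All 10 genes were lower in MCDHFD at a limma adjusted p under 0.05, against 28.1% of all tested genes (58.4% were called in either direction), and in all 10 the highest MCDHFD library lay below the lowest ND library, against 32.3% of tested genes that did so and 33.2% that did the reverse. On the recovered reads of 5 libraries edgeR and DESeq2 also called 10 of 10 lower, against 25.7% and 23.6% of the genes each tested. Their median log2 fold change (MCDHFD minus ND) was -0.99, where the median of all tested genes was 0.004. Together the 10 genes made up 0.454% ± 0.00821 of normalized counts in ND and 0.212% ± 0.0152 in MCDHFD (SD, n = 3). In bulk RNA, fewer cells of a type and less RNA per cell cannot be told apart. The falls were not of one size: they ran from a log2 fold change of -0.44 for Lat to -1.49 for Cd3g. Of the tested genes, 3.51% had a lower fold change than Cd3g and 22.1% a lower one than Lat.

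**Figure D1:**
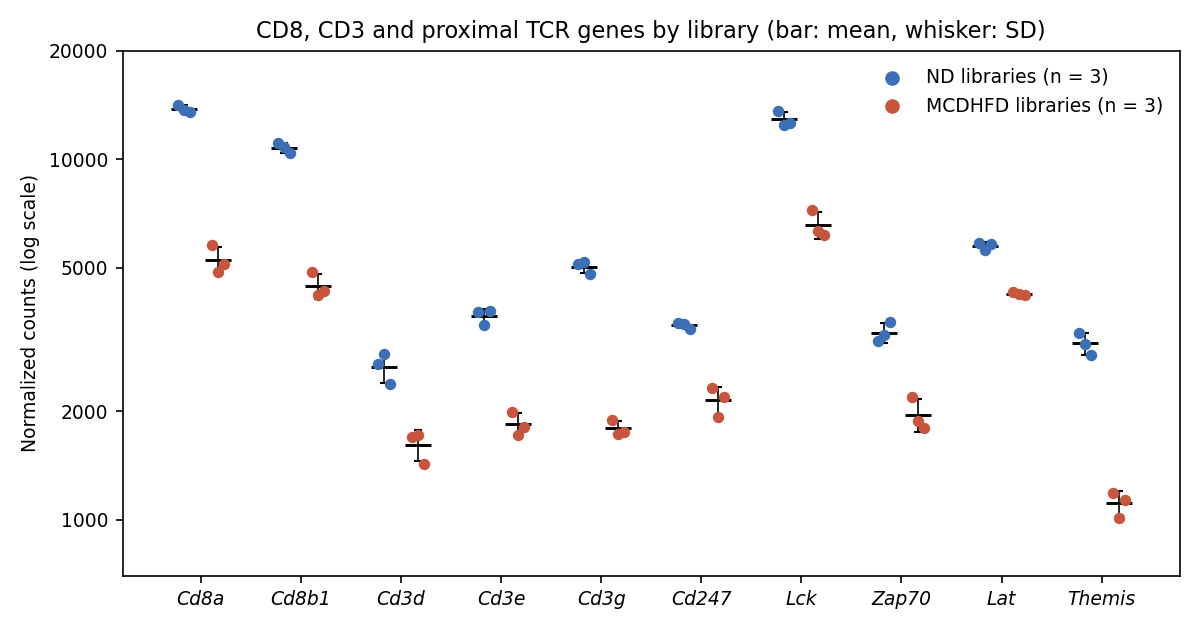
Normalized counts (log axis) of the 10 genes in the 3 ND libraries (blue) and the 3 MCDHFD libraries (red), with the mean (bar) and SD (whisker) of each diet. For every gene the 3 red points lie below the 3 blue points, with the narrowest gap for Lat (from 5618 down to 4271).

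The CD8 co-receptor is a dimer of an alpha chain with a beta chain, or of alpha chains alone. Cd8a, the alpha chain gene, measured 14172, 13690.3 and 13491 normalized counts in ND replicates 1 to 3 and 5772, 4884 and 5135 in MCDHFD replicates 1 to 3. The MCDHFD mean was 38.2% of the ND mean (log2 fold change -1.39, SE 0.07, limma adjusted p = 5.41e-07). Cd8b1, the beta chain gene, measured 11069.9, 10818 and 10411 in ND and 4858, 4198 and 4318 in MCDHFD. Its MCDHFD mean was 41.4% of the ND mean (log2 fold change -1.27, SE 0.06, limma adjusted p = 6.87e-07). The 3 MCDHFD libraries of each chain lay well under its ND libraries, and MCDHFD replicate 1 was the highest of its diet for both.

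The genes lie near each other on chromosome 6 of mm10, Cd8b1 at 71322788 to 71337494 and Cd8a at 71373427 to 71379173, both on the plus strand with 35932 bases between them, and no other annotated gene overlaps either. The ratio of Cd8a to Cd8b1 reads was nearly constant within a diet. It was 1.28, 1.27 and 1.30 in ND and 1.19, 1.16 and 1.19 in MCDHFD. The log2 difference of the ratio (MCDHFD minus ND) was -0.12 (SE 0.01), and the diets did not overlap. An exact two-sided permutation test of this ratio gave p = 0.1, the lowest value possible for 3 libraries per diet, and 0.12 after Benjamini-Hochberg adjustment over 12 ratios.

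The CD3 chains differed more among themselves than the CD8 chains did. Cd3g, the gamma chain gene, measured 5116, 5185 and 4798 normalized counts in ND and 1897, 1727 and 1755 in MCDHFD. The MCDHFD mean was 35.6% of the ND mean (log2 fold change -1.49, SE 0.06, limma adjusted p = 2.06e-07), the lowest fold change of the 10 genes. Cd3d, the delta chain gene, measured 2702, 2878 and 2375 in ND and 1696, 1715 and 1433 in MCDHFD. Its MCDHFD mean was 60.9% of the ND mean (log2 fold change -0.72, SE 0.09, limma adjusted p = 1.78e-04). Both chains had separate diets, but Cd3d spread more between ND libraries than any other of the 10 genes, with a range of 0.28 on the log2 scale. Cd3e, the epsilon chain gene, which pairs with either of these chains, measured 3760.1, 3466 and 3785 in ND and 1992, 1715 and 1814 in MCDHFD. It fell to 50.1% of the ND mean (log2 fold change -0.997, SE 0.07, limma adjusted p = 3.69e-06), between the other chains. Cd247, the zeta chain gene, measured 3509.5, 3488 and 3392 in ND and 2314, 1930.3 and 2191 in MCDHFD. Its fall, to 61.9% of the ND mean (log2 fold change -0.69, SE 0.07, limma adjusted p = 3.98e-05), was about the size of that of Cd3d. Cd247 lies apart from the others, on chromosome 1 at 165788681 to 165877277, plus strand.

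Cd3g and Cd3d are neighbours whose starts face away from each other on chromosome 9, with 1354 bases between them. Cd3g lies at 44969572 to 44980431 on the minus strand, Cd3d at 44981786 to 44987339 on the plus strand, and Cd3e at 44998740 to 45009627 on the minus strand. The ratio of Cd3g to Cd3d reads was 1.89, 1.80 and 2.02 in ND and 1.12, 1.01 and 1.22 in MCDHFD. The lowest ND library thus stood well above the highest MCDHFD library, a difference of -0.77 on the log2 scale (SE 0.09, exact two-sided permutation p = 0.1, adjusted p = 0.12). Cd3g against Cd3e moved the same way, from 1.36, 1.496 and 1.27 to 0.953, 1.01 and 0.967 (exact permutation p = 0.1). Cd3d against Cd3e was 0.719, 0.83 and 0.628 in ND and 0.852, 1 and 0.79 in MCDHFD, and here the diets overlapped (exact permutation p = 0.2). Cd247 against Cd3e went from 0.933, 1.01 and 0.896 to 1.16, 1.13 and 1.21 without overlap (exact permutation p = 0.1). Both co-receptor chains were also set against Cd3e. Cd8a/Cd3e went from 3.76 ± 0.193 to 2.86 ± 0.0353 and Cd8b1/Cd3e from 2.94 ± 0.185 to 2.42 ± 0.037 (SD, n = 3, exact permutation p = 0.1 for each), without overlap.

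The promoter windows of the 3 clustered CD3 genes are shown because the neighbours in this locus differed in the size of their fall. They come from RefSeq on GRCm38.p6, each with 250 bases before and 50 bases from the annotated start on, read 5′ to 3′ on the strand of the gene. Capitals mark matches, on either strand, to AGGAAG or TGTGGT (one form each of the ETS and RUNX factor sites). They also mark CAGGTG (an E-box) and CTTTGA (the core of TCF and LEF sites).
Cd3g, chr9:44980382-44980681, minus strand: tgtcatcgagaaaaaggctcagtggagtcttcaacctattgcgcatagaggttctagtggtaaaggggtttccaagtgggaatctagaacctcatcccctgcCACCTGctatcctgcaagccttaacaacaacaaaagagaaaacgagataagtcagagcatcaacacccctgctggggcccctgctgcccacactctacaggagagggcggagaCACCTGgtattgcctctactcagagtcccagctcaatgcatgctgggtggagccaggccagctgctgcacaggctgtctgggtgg
Cd3d, chr9:44981536-44981835, plus strand: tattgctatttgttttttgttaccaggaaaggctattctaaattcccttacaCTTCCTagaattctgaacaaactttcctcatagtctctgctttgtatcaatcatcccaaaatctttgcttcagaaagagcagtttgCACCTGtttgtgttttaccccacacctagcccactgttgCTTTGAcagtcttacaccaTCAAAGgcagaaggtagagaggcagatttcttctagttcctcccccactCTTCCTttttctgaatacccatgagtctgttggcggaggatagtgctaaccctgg
Cd3e, chr9:45009562-45009861, minus strand: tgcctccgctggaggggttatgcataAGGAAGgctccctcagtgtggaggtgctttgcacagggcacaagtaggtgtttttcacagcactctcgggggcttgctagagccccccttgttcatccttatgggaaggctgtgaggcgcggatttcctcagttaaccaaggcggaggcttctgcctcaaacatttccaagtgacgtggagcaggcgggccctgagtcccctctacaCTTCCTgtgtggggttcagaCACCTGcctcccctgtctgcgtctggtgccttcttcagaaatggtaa
Each of the 3 windows held CAGGTG, which 20.2% of the 32851 mouse promoter windows of this length hold. AGGAAG, present in 35.4% of all windows, was found in the Cd3d and Cd3e windows and not in that of Cd3g, and CTTTGA, present in 16.0%, was found in that of Cd3d alone of these 3. A match is a description of the letters and not a site shown to be bound. Other forms of these sites were not searched for, so a window without a match may still hold one. Of the 10 genes, 9 had windows in the table, 13 windows in all. TGTGGT (16.8% of all windows) occurred in 3 of these 13, which belong to Lck, Zap70 and Lat.

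**Figure D2:**
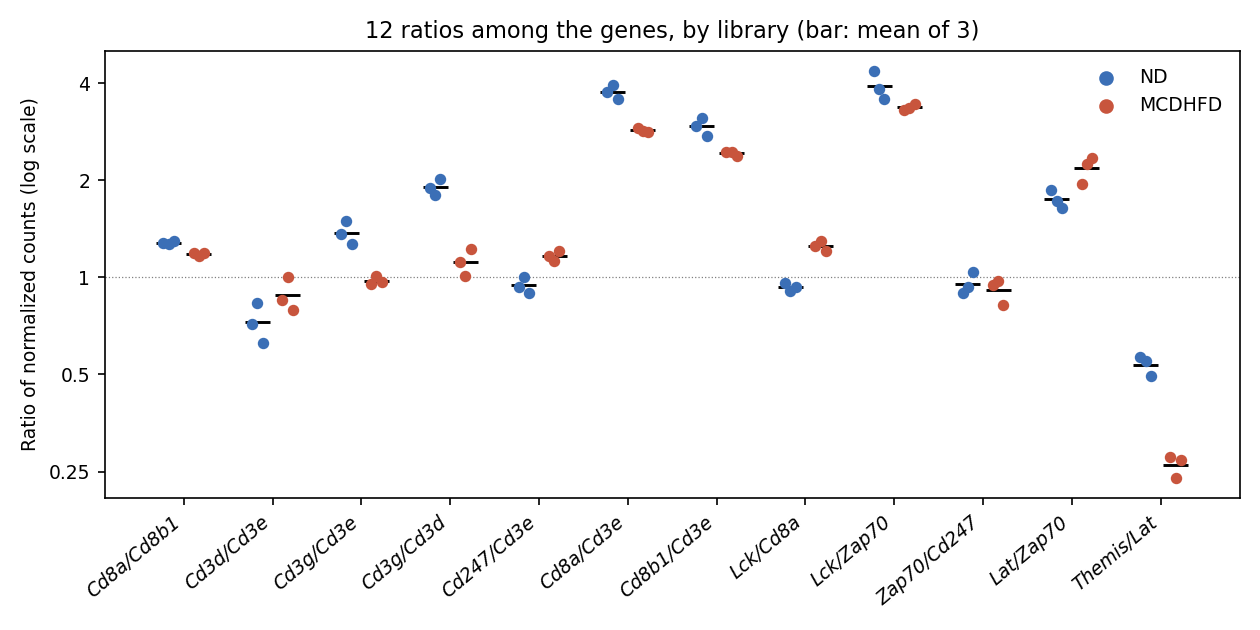
Ratios of normalized counts between pairs of the 10 genes (log axis) in each ND (blue) and MCDHFD (red) library, with the mean of 3 as a bar. Cd3g/Cd3d went from 1.80 or more in ND to 1.22 or less in MCDHFD, whereas Cd3d/Cd3e and Zap70/Cd247 overlapped between the diets.

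Lck, the Src family kinase that CD8 carries, measured 13654, 12453 and 12625 normalized counts in ND and 7232, 6318 and 6179.9 in MCDHFD. The MCDHFD mean was 50.9% of the ND mean (log2 fold change -0.98, SE 0.07, limma adjusted p = 5.64e-06). Its share of the ND level was thus larger than that of Cd8a. The ratio of Lck to Cd8a went from 0.963, 0.91 and 0.936 to 1.25, 1.29 and 1.203, without overlap (log2 difference 0.42, SE 0.04, exact permutation p = 0.1).

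Zap70, the kinase that docks on phosphorylated CD3 and zeta tails, measured 3131, 3252 and 3530.5 in ND and 2186, 1883 and 1795 in MCDHFD. Its MCDHFD mean was 59.2% of the ND mean (log2 fold change -0.76, SE 0.08, limma adjusted p = 5.85e-05). The ratio of Zap70 to Cd247 overlapped between the diets, at 0.892, 0.932 and 1.04 in ND and 0.945, 0.976 and 0.819 in MCDHFD (exact permutation p = 0.6). The ratio of Lck to Zap70 was 4.36, 3.83 and 3.58 in ND and 3.31, 3.35 and 3.44 in MCDHFD (exact permutation p = 0.1), with a narrow gap between the diets. On mm10, Lck lies on chromosome 4 at 129548344 to 129573641, minus strand, and Zap70 on chromosome 1 at 36761798 to 36782818, plus strand.

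Lat, the membrane adaptor that ZAP70 phosphorylates, measured 5842, 5618 and 5812 normalized counts in ND and 4271, 4239 and 4198 in MCDHFD. It had the smallest fall of the 10 genes, to 73.6% of the ND mean (log2 fold change -0.44 with SE 0.05, limma adjusted p = 4.54e-05), and the smallest spread between MCDHFD libraries, with an SD of 36.7. The ratio of Lat to Zap70 went from 1.87, 1.73 and 1.65 to 1.95, 2.25 and 2.34 (log2 difference 0.32, SE 0.09, exact permutation p = 0.1). The Lat gene lies on chromosome 7 at 126363824 to 126369570, minus strand. Its RefSeq promoter window on GRCm38.p6 is shown for comparison with the CD3 windows, as that of the gene at the other end of the range, with the same 4 motifs in capitals.
Lat, chr7:126369519-126369818, minus strand: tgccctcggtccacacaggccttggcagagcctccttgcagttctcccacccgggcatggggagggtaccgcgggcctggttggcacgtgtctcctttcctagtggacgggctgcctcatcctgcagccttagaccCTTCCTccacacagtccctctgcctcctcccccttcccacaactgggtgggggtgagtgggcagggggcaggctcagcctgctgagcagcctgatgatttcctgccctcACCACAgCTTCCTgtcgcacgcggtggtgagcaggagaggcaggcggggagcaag
It held AGGAAG at 2 places and TGTGGT once, on the reverse strand, and neither CAGGTG nor CTTTGA.

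Themis measured 3300.0, 3082 and 2869 in ND and 1184, 1012 and 1138 in MCDHFD, 36.0% of the ND mean (log2 fold change -1.47, SE 0.08, limma adjusted p = 7.99e-07). Only Cd3g had a lower fold change among the 10 genes. The gene lies on chromosome 10 at 28668360 to 28883818, plus strand. Themis and Lat thus stood far apart. The ratio of Themis to Lat went from 0.565, 0.549 and 0.494 to 0.277, 0.239 and 0.271, the largest difference of the 12 ratios (-1.03 on the log2 scale, SE 0.09, exact permutation p = 0.1). In all, 10 of the 12 ratios had separate diets, each at the exact permutation p of 0.1 (0.12 adjusted over the 12). None of the ratios could pass 0.05 in this design. How many ratios of other gene pairs had separate diets was not counted. Of single tested genes, 65.4% had separate diets in either direction.

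**Figure D3:**
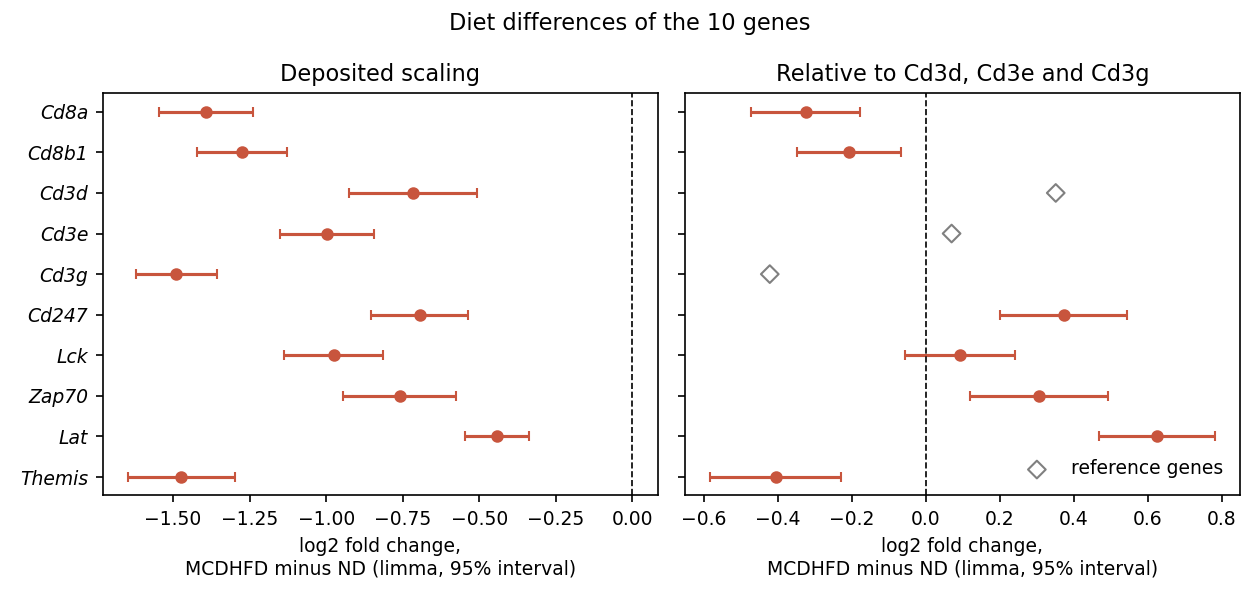
Log2 fold changes of the 10 genes between the diets with 95% intervals from limma, on the deposited scaling (left) and with the mean log2 value of Cd3d, Cd3e and Cd3g held equal in all libraries (right; diamonds are these 3 reference genes). On the left all intervals lie below 0, from Cd3g at -1.49 to Lat at -0.44. On the right Lat, Cd247 and Zap70 lie above 0 and Themis, Cd8a and Cd8b1 below it.

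To ask whether the other genes differed relative to the CD3 chains, the whole table was fitted again with the mean log2 value of Cd3d, Cd3e and Cd3g held equal in all libraries. This scaling moved the median of all tested genes to 1.07, with 84.6% of them higher and 3.07% lower in MCDHFD. Of the 7 other genes, 3 were higher relative to the CD3 chains. They were Lat (log2 fold change 0.62, 95% interval 0.47 to 0.78, limma adjusted p = 8.66e-06), Cd247 (0.37, 0.20 to 0.54, limma adjusted p = 8.59e-04) and Zap70 (0.31, 0.12 to 0.49, limma adjusted p = 0.00541), which were all lower on the deposited scaling. Another 3 were lower: Themis (-0.41, -0.58 to -0.23, limma adjusted p = 6.30e-04), Cd8a (-0.32, -0.47 to -0.18, limma adjusted p = 8.38e-04) and Cd8b1 (-0.21, -0.35 to -0.07, limma adjusted p = 0.0102). Lck did not pass (0.09, -0.06 to 0.24, limma adjusted p = 0.215). The reference chains themselves lay at 0.35 (Cd3d), 0.07 (Cd3e) and -0.42 (Cd3g) on this scaling. Zap70, Themis, Cd8a and Cd8b1 lay within that spread, Cd247 just above it and Lat well above it. The calls are thus relative to the mean of the 3 chains and not to each of them. The 3 genes that were lower stood against a background of few such genes, and the 3 that were higher against a background in which most genes were. Each of the 6 lay nearer to the CD3 chains than the median tested gene did. That follows from their falls on the deposited scaling and from the shift of all genes, and is no separate result.

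The genes of the antigen-binding chains gave a second reference, chosen after the data were seen. The constant chain genes Trac, Trbc1 and Trbc2 fell to 44.0%, 50.5% and 48.5% of their ND means, and none of the 3 passed the test relative to the CD3 chains (log2 fold changes -0.12, 0.08 and 0.02, limma adjusted p = 0.117, 0.399 and 0.759). Holding their mean equal moved every fold change by the same small amount, as with Lat from 0.6248 to 0.6301. The 7 genes gave the same calls in the same directions, which is therefore no independent check. With this reference the CD3 chains themselves could be tested. Cd3g was lower (log2 fold change -0.42, SE 0.06, limma adjusted p = 1.41e-04), Cd3d was higher (0.36, SE 0.10, limma adjusted p = 0.0076) and Cd3e did not pass (0.08, SE 0.07, limma adjusted p = 0.298).

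Per kilobase of the longest annotated coding transcript, the order of the levels changed between the diets. In ND, Cd8b1 was the highest, at 7260 ± 224 normalized counts per kilobase (SD, n = 3), followed by Lck at 5909 ± 297, Cd3g at 4920 ± 202, Lat at 4662 ± 98.6, Cd8a at 4407 ± 112, Cd3e at 2511 ± 121, Cd3d at 1640 ± 158, Zap70 at 1472 ± 91.3, Cd247 at 1171 ± 21.1 and Themis at 607 ± 42.4. The ranges of the neighbours Cd3g and Lat overlapped, as did those of Cd3d and Zap70. In MCDHFD, Lat came first at 3430 ± 29.7, above Lck (3009.8 ± 262) and Cd8b1 (3006 ± 237), whose ranges overlapped. Cd3g (1753 ± 89.4) and Cd8a (1683 ± 146) followed, again with overlapping ranges. The order from Cd3e down to Themis was the same as in ND, with Themis last at 219 ± 17.5. These levels depend on which transcripts are present, and the levels of single transcripts were not analysed here.

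**Figure D4:**
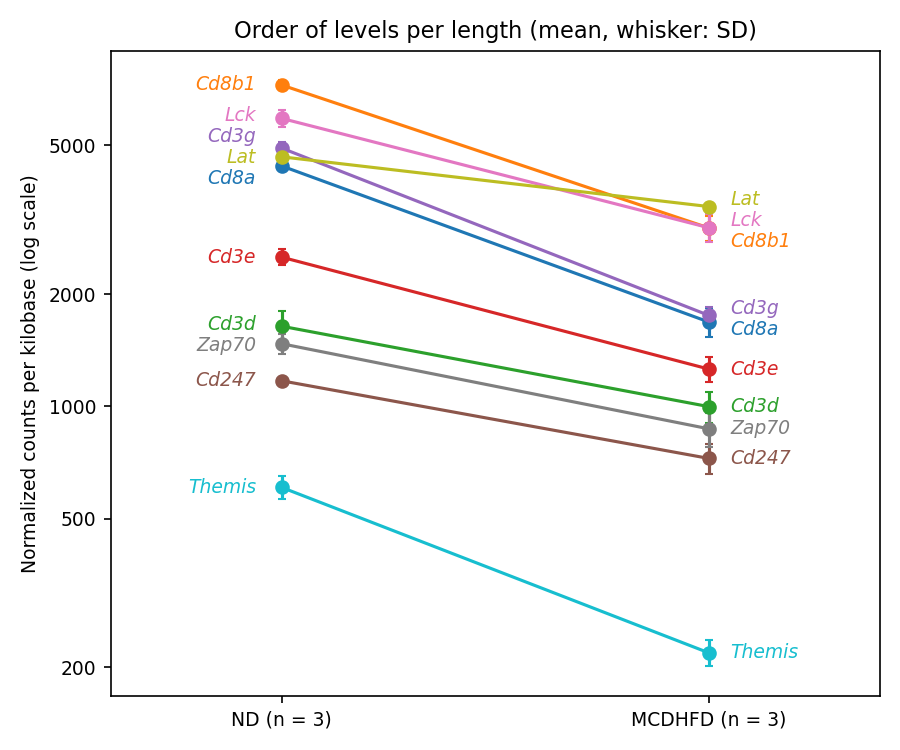
Mean normalized counts per kilobase of the longest coding transcript (log axis) of the 10 genes in ND (left) and MCDHFD (right), with the SD over 3 libraries as whiskers. Every line falls. The line of Lat is the flattest, and Lat goes from the fourth place, at 4662, to the first, at 3430.

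Of 43 further genes of the receptor pathway, 32 were lower and 5 higher in MCDHFD and 6 did not pass. Of all tested genes, 28.1% were lower and 30.3% higher, and the same shares stand beside the smaller lists below. The median log2 fold change of the 43 genes, -0.46, lay nearer to 0 than the -0.99 of the CD8, CD3 and proximal genes. The kinases and phosphatases around LCK split, with 5 of 7 lower and 2 higher. Ptprc, the CD45 phosphatase that keeps LCK active, fell to 70.8% of ND (log2 fold change -0.50), Csk, the kinase that restrains LCK, to 80.1% (-0.32), and Fyn, the other Src family kinase of T cells, to 84.6% (-0.24). Ptpn22, a phosphatase that acts with CSK, was higher in each MCDHFD library, at 5504, 5541 and 5589 against 4403, 4464 and 4078 in ND (log2 fold change 0.36, SE 0.05, limma adjusted p = 3.39e-04). Txk, a Tec family kinase of T cells, rose as well, from 2611, 2970.0 and 3031 to 4032, 3361 and 3514 (0.34, SE 0.08, limma adjusted p = 0.00706).

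Of 11 adaptors and enzymes gathered around LAT, 7 fell, 2 rose and 2 did not pass. Lcp2, the adaptor SLP-76, went from 4169, 3937 and 4291 to 4853, 4932 and 5352 normalized counts (0.29 on the log2 scale, SE 0.06, limma adjusted p = 0.00259). Vav1, a signalling protein that binds SLP-76, went from 3140.4 ± 90.6 to 3920.5 ± 114 (0.32, SE 0.05, limma adjusted p = 5.68e-04). Both of these genes are also active in myeloid cells, whose markers rose in the same libraries, and the part of those cells was not tested. Grap2, the adaptor GADS that joins SLP-76 to LAT, fell to 67.3% of ND (-0.58), Skap1 to 53.9% (-0.89) and Sh2d2a, an adaptor that binds LCK, to 39.1% (-1.36). Plcg1, the phospholipase that LAT recruits, fell to 84.7% (-0.24). Grb2, which links LAT to Ras activation, did not pass, and its libraries did not follow the diets: ND measured 2600.1, 1280.2 and 1231, and MCDHFD 1266, 1279 and 3003.

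Of 9 downstream effectors, 7 fell and none rose. Rasgrp1, the Ras exchange factor that LAT signalling switches on, fell to 42.6% of ND (log2 fold change -1.23), the paracaspase gene Malt1 to 55.1% (-0.86) and Prkcq, protein kinase C theta, to 62.4% (-0.68). Dgkz and Stim1 did not pass (-0.13 and -0.12). Of 13 dampers and other transmembrane adaptors, 10 fell, 1 rose and 2 did not pass. Cd5, which restrains receptor signalling and whose level follows its strength in thymocytes, fell to 40.1% of ND (-1.32), its relative Cd6 to 55.9% (-0.84), Dok2 to 51.7% (-0.95) and Ubash3a to 60.3% (-0.73). Cblb, a ubiquitin ligase that limits T cell activation, was called higher (0.22, limma adjusted p = 0.028), a call lost without any 1 of the 3 ND libraries (0.22, 0.22 and 0.23, limma adjusted p = 0.0671, 0.0678 and 0.0626).

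The family members that do the same work in B and myeloid cells were compared with the T cell genes. Of 14 such genes, 9 were higher and 4 lower in MCDHFD and 1 did not pass, against 30.3% higher and 28.1% lower of all tested genes. Syk, the relative of ZAP70 in these cells, went from 2127, 1963 and 2020.1 to 4189, 4230.0 and 4289.6 normalized counts (a log2 difference of 1.06 with SE 0.05, limma adjusted p = 5.22e-07), while Zap70 fell. The Src family kinases Fgr (1.58) and Lyn (1.44) rose while Lck fell. Fcer1g and Tyrobp, adaptor chains with the same kind of tail motif as CD247, rose from 734 ± 125 to 3573 ± 553 (2.28) and from 670.3 ± 24.2 to 2363 ± 322 (1.81). Themis2, the relative of Themis in B and myeloid cells, rose from 1004 ± 96.2 to 1822 ± 163 (0.86). The 4 genes of this list that fell, Cd79a (-1.91), Blk (-1.67), Cd79b (-1.24) and Blnk (-0.77), act in B cell receptor signalling, but other genes of that pathway were higher. Btk, a Tec family kinase of B and myeloid cells, rose from 317 ± 40.1 to 591 ± 66.2 (0.90, limma adjusted p = 2.05e-04). Plcg2, the phospholipase of these cells, was called higher with overlapping diets (0.24, limma adjusted p = 0.0403). That call was lost without ND replicate 1 or 3 (0.21 and 0.22, limma adjusted p = 0.105 for each) and without MCDHFD replicate 2 or 3 (0.21 and 0.17, limma adjusted p = 0.109 and 0.139). Lat2, the relative of Lat, did not pass (-0.20, limma adjusted p = 0.376).

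**Figure D5:**
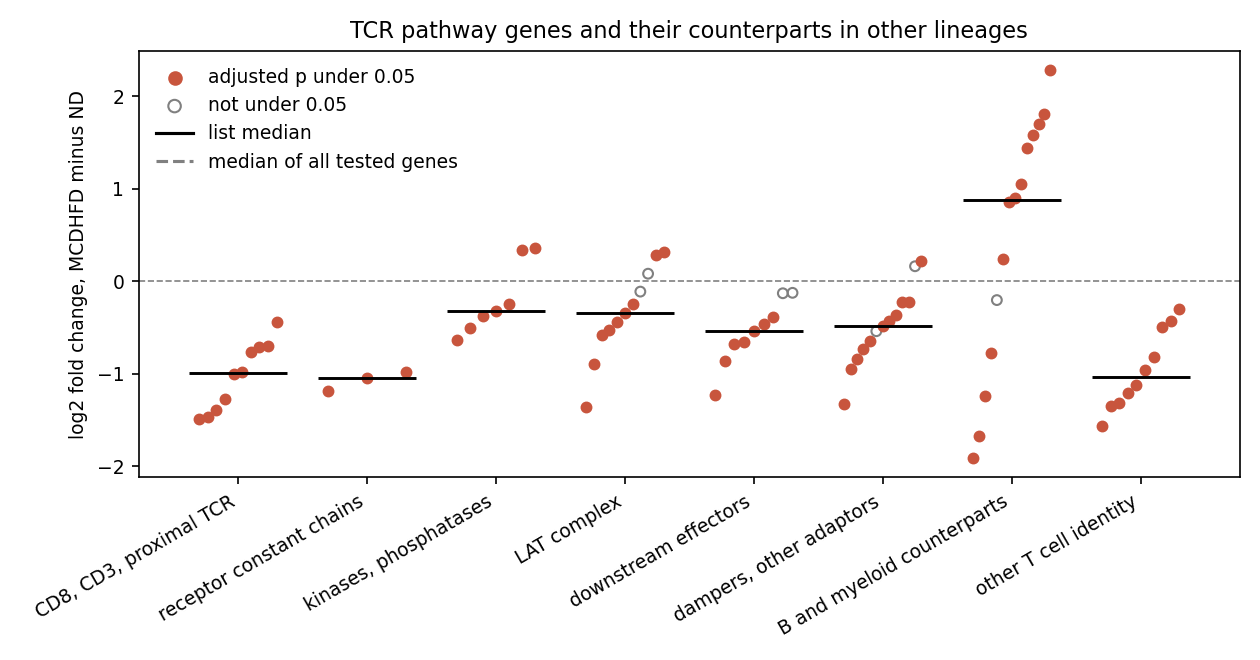
Log2 fold change (MCDHFD minus ND) of each gene in 8 lists, filled where the limma adjusted p is under 0.05, with the list median as a bar and the median of all tested genes (0.004) as a dashed line. The CD8, CD3 and proximal genes all lie between -1.49 and -0.44, further receptor pathway genes reach from -1.36 to 0.36, and the B and myeloid counterparts from -1.91 to 2.28.

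Other T cell identity genes, not part of the receptor, spread as widely as the 10 genes did. Of these, 10 of 10 fell, against 28.1% of all tested genes. Thy1, a surface protein of T cells, fell to 43.4% of ND (log2 fold change -1.20), Gimap3 to 56.9% (-0.82), Il7r, the interleukin-7 receptor, to 74.6% (-0.43) and Tcf7, a transcription factor of naive and memory T cells, to 81.5% (-0.30). Relative to the CD3 chains, 3 of these 10 were lower and 4 higher, against 3.07% and 84.6% of all tested genes.

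Within MCDHFD, the 10 genes shared the highest library more than the full order. The highest was MCDHFD replicate 1 for 9 of the 10, with Cd3d as the exception. The lowest was replicate 2 for 6 of them and replicate 3 for 4. How often this holds over all tested genes was not counted. MCDHFD replicate 1 also held the lowest macrophage share, 1.34% against 1.61% and 1.62%, and the lowest erythroid share, 0.0616% against 0.112% and 0.106%. The part of these cells in that order was not tested, and without this library all 10 genes were still lower at an adjusted p under 0.05. The genes outside the 10 whose log2 values over the 6 libraries, centred on their mean, lay closest to the mean profile of the 10 were Stat4, Rel, H2-Q7, Senp7, Rinl and Nfkbid. Their root mean square differences from that profile ran from 0.0256 to 0.0377, compared with 0.0431 for Lck, the nearest of the 10 genes, and 0.294 for Lat, the farthest. As the 6 were picked for this distance out of the whole table, their small differences and their falls follow from the choice. Stat4, a transcription factor of interleukin-12 signalling, fell from 1873 to 921 on average, and Rel, a subunit of NF-kB, from 4019 to 1924. H2-Q7 belongs to a family of similar copies, so its value is uncertain.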

How the data were processed

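Total RNA of splenic CD8+ T cells, taken up in TRIzol, went into cDNA libraries by one of 2 kits (for whole RNA or for mRNA), per the labels' protocols, and the kit of each library is unknown. The genome build was mm10, per the submitters' processing notes. Aligner, counting tool, strandedness and gene models: not given in the sources used here. Reads of overlapping or antisense genes, which Cd3e, Cd247, Lck, Zap70, Lat and Themis have in GENCODE M21, therefore cannot be told apart. The deposited table holds a signal, normalized counts of 19323 genes, scaled by the authors with one factor per library, as the values show. Totals were 14119816 to 14752121. In all 6 libraries, 100% of values were whole multiples of the smallest (tolerance 0.01), giving 13188812 to 15482458 reads. The smallest value of ND replicate 3 was 0.990, the nearest to 1, and edgeR and DESeq2 were run without this library. Its values were whole multiples as in the other libraries, and MCDHFD replicate 2, at 0.983, was kept. The omission thus did not rest on a difference seen in the values.

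Gene symbols, coordinates and lengths came from GENCODE M21 on mm10 by gene identifier (Fyb1 under its older symbol Fyb). The test was limma 3.58.1 (R 4.3.3) with a trend on log2 of the value plus 1, diet as the only term, over 13430 genes with a mean of at least 10, with Benjamini-Hochberg adjustment at 0.05, and was tested on simulated data. Fold changes are on that scale. Ratios had exact permutation tests over 20 arrangements. Alternatives were edgeR 4.0.16 and DESeq2 1.42.0 for 5 libraries (2 of them ND), other pseudocounts, filters, scalings and thresholds, a replicate block, and leaving out each library. Libraries of 1 diet differed by more than sampling noise (chi-square per degree of freedom 6.46 to 12.3 in the 4 pairs compared). The genes and lists were chosen with earlier results of these data known. Named were the 10 genes, genes of the pathway and counterpart lists, 4 other identity genes by mean level, up to 3 markers per cell list by mean level, and the 6 genes nearest to the mean profile. Cd4, Ly6g and Cd209a lie outside that rule and were named after their values were seen. Some genes of the lists are counted but not reported by name here.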

Additional observations from a re-analysis of the deposited data

How the results depend on the processing

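All 10 genes stayed lower, at an adjusted p under 0.05, in the 16 alternatives tried, edgeR and DESeq2 on the recovered reads of 5 libraries included. Their log2 fold changes ranged from -0.46 to -0.41 for Lat and from -1.53 to -1.46 for Cd3g. Of the 7 genes set against the CD3 chains, 3 were higher in all 15 alternatives and 3 lower in all but 1. At a threshold of 0.01, Cd8b1 (limma adjusted p = 0.0102) was lost. The constant chain reference, chosen after the data were seen and no independent check, was among the 15. The pathway list had between 28 and 34 genes lower and 4 or 5 higher, and the counterpart list 4 lower and 8 or 9 higher. The log2 difference of the Zap70/Cd247 ratio, -0.0658, turned to 0.0104 without MCDHFD replicate 3, and leaving out each library in turn gave -0.115 to 0.0104. The cause was not tested. With quantile scaling, 3552 genes were higher and 4557 lower, against 4065 and 3772.

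The replicate number as a block left 10 of the 10 genes lower. Whether the numbers pair the libraries could not be settled from so few pairs. Deviations of same-numbered libraries from their diet's mean correlated at 0.00572 to 0.0621, and those of other numbers at -0.0573 to 0.0197. Not every library correlated best with its own number. Among 81 other genes fitted under the same alternatives, no called direction reversed. Calls of Nck2, Orai1, Sla, Sla2, Cblb and Plcg2 were lost and calls of Fyb, Dgkz, Stim1 and Trat1 were gained under some of them. Depth limits none of the 10 genes, the lowest of which had 1012 normalized counts.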

Other observations

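Grb2 was 1 of a small set of genes whose libraries of the same diet stood far apart. Of 7367 genes with a mean of at least 300 normalized counts, 72 had a range over 1 on the log2 scale (more than 2-fold) among the ND libraries and 83 among the MCDHFD libraries. In Grb2 the high libraries were ND replicate 1 and MCDHFD replicate 3. In the 10 CD8, CD3 and proximal genes the widest such range was 0.28, in Cd3d among ND and in Zap70 among MCDHFD libraries.

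In the B cell list, Pax5 had a similar split among the MCDHFD libraries, at 47.1, 325 and 319 normalized counts, a gene named after its values were seen.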
